A study of Homo sapiens with 4 samples.

Results

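The transcripts of 10 genes were followed: DDIT4, the sestrins SESN1, SESN2 and SESN3, and the genes TSC1, TSC2, RHEB, MTOR, DEPTOR and AKT1S1, which encode or regulate mTORC1, the nutrient-sensing form of the kinase mTOR. The genes were taken by name from the 26348 genes of the deposited table. All 10 had a value of at least 0.5 FPKM (counted fragments scaled to gene length and to the library total) in 3 or more libraries and so were among the 13811 genes tested. DDIT4 was picked because it rose more in 293T than in A549. Its response to the field, and the difference of that response between the lines, are therefore described without a test and support nothing.

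RNA was sequenced from 2 established human lines, 293T, a renal epithelial line of embryonic origin, and A549, a tumour line of non-small cell lung cancer. Each line had spent 2 h in a magnetic field (exposed) or had received no field (control), with 3 libraries in each of the 4 groups. Neither the strength nor the source of the field is given in the sources used here. Whether the 3 libraries of each group are separate cultures is not stated in the labels, so the p-values reflect library-to-library spread alone, possibly of technical origin.

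Recovered depth was 37171616 to 38883963 counts per library. The 10 keratin and detoxification markers of A549 summed to 7835 to 7909 FPKM in control A549, 8223 to 8356 FPKM in exposed A549 and 86.5 to 96.8 FPKM in 293T. The 8 markers of 293T summed to 105 to 113 FPKM in 293T, 18.0 to 18.6 FPKM in control A549 and 16.5 to 17.3 FPKM in exposed A549. Those of blood and endothelium reached at most 3.11 and 0.0510 FPKM. The fibroblast markers summed to at most 4.01 FPKM in 293T, 1.66 to 1.91 FPKM in control A549 and 2.05 to 3.42 FPKM in exposed A549. CD3E was at 0 in every A549 library and every exposed 293T library, and CRABP1, a marker of 293T, was at 0 in every exposed 293T library. Of the 8 markers of 293T, 7 averaged at least 0.5 FPKM in control 293T, 6 in exposed 293T and 5 in each A549 group. Of the 10 markers of A549, 6 did so in control 293T, 7 in exposed 293T and all 10 in each A549 group. The A549 and fibroblast sums were thus higher, and the 293T sum lower, in exposed than in control A549, and their part in the results of exposed A549 was not tested. On the first principal component of either line, exposed replicate 3 lay nearest to the controls (6.51 against 14.69 and 16.12 in 293T, 9.91 against 15.67 and 18.19 in A549). The counts below are also given without both of these libraries, a choice made after seeing the data.

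mTORC1 drives protein synthesis and cell growth and holds back autophagy when amino acids, energy and growth factors are sufficient. Growth factors act through the TSC complex, which keeps the GTPase RHEB inactive, while amino acids act through the Rag GTPases at the lysosome. DDIT4 (REDD1) is a short-lived stress protein that releases the TSC complex from inhibition, and sestrins restrain mTORC1 by binding the GATOR2 complex. The values are amounts of mRNA, and the activity of mTORC1 was not measured.

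RefSeq (GRCh38.p14) supplied promoter windows, 250 bases before to 50 after a gene's start, for 8 of the 10 genes, all but DEPTOR and AKT1S1. The windows of DDIT4, of SESN2, the sestrin with the largest rise in 293T, and of TSC2, which fell in both lines, are shown from base 250 to base 21 before the start. They lie on the plus strand at chr10:72273674-72273903, chr1:28259268-28259497 and chr16:2047735-2047964. Capitals mark matches on either strand to ACGTG (the hypoxia response element core), TGATGNAA (the composite site of ATF4 and CHOP) and GGGCGG (the GC box).
DDIT4: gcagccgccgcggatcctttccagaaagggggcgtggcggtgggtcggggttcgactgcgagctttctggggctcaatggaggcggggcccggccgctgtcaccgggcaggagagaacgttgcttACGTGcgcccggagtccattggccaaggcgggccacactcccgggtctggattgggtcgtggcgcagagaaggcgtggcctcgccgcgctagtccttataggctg
SESN2: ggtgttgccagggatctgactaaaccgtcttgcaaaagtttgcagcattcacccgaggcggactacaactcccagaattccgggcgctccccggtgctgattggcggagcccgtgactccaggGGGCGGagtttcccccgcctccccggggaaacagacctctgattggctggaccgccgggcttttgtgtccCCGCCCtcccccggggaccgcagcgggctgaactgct
TSC2: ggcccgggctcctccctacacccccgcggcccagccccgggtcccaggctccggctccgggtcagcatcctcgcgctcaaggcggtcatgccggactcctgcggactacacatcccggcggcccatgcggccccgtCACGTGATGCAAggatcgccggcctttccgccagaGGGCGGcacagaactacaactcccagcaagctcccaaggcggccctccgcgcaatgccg
The DDIT4 window held 1 match to ACGTG, beginning at position -125 relative to the start, and none to the other motifs searched. ACGTG was present in 21.4% of all 35116 windows and in those of DDIT4, RHEB and TSC2. In TSC2 the palindrome around it gave a match on each strand, and these overlapped the single match to TGATGNAA among the 8 genes, a motif held by 3.62% of windows. The GC box, searched after the windows had been seen, occurred in 45.0% of windows and in those of MTOR, RHEB, SESN1, SESN2, TSC1 and TSC2. GAANNTTC, the unit of the heat shock element (6.77% of windows), was matched in MTOR alone among the 8. TGACGTCA (cAMP response element, 1.85%), TGANTCA (AP-1, 7.71%) and TATAAA (11.5%, the classical core promoter box, added after the windows had been seen) were matched in none of the 8. GC content was 68.3% in the DDIT4 stretch, 64.8% in that of SESN2 and 71.7% in that of TSC2, against a median of 57.8% over all windows in the same stretch (quartiles 46.1% and 67.8%). A match is a description of the letters in a window and shows no binding.

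The first comparison asked which of the genes differed between exposed and control 293T cells. SESN2, SESN3 and TSC1 rose and TSC2 and MTOR fell, which was 5 of the 9 genes tested apart from DDIT4, while 38.0% of all genes tested changed (13.7% rose and 24.2% fell). The median log2 fold change of the 9 was 0.12, against -0.03 over all genes. Without both exposed replicate 3 libraries, RHEB also passed, which made 4 higher and 2 lower. In A549, SESN2, SESN3 and RHEB rose and SESN1, TSC2 and MTOR fell, 6 of 9, where 40.2% of all genes changed (13.3% rose and 26.9% fell). The median of the 9 was 0.03, against -0.04 over all genes, and without both exposed replicate 3 libraries 3 rose and 2 fell. Exposed and control libraries did not overlap for 6 of these 9 genes in 293T and for 5 in A549, which was true of 50.0% and 49.7% of all genes tested. A log2 fold change here is on the log2(FPKM + 1) scale, on which changes of weakly expressed genes come out too small. Adjusted p-values come from limma and are adjusted by the Benjamini-Hochberg method across the 13811 genes, and 0.05 was the threshold for a call.

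**Figure D1:**
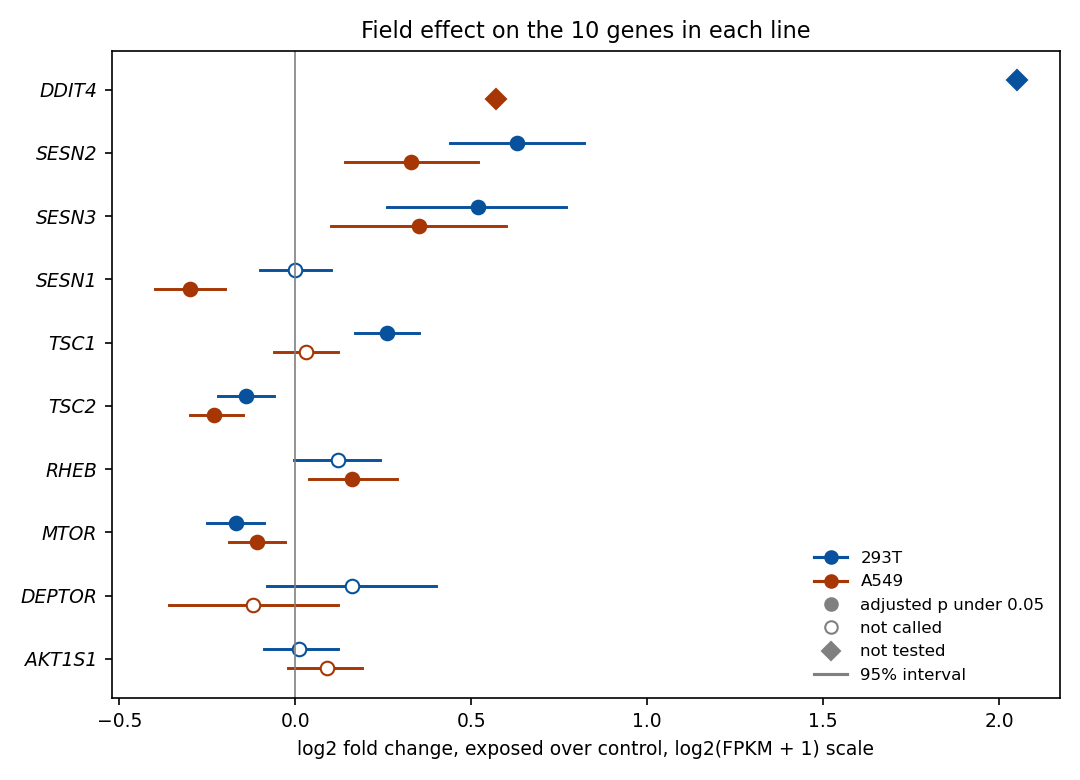
Log2 fold change of exposed over control on the log2(FPKM + 1) scale (x axis) for each of the 10 genes (y axis) in 293T (blue) and A549 (red). Bars are 95% intervals, filled circles have an adjusted p under 0.05, and diamonds mark DDIT4, which was not tested and stands at 2.05 in 293T and 0.57 in A549.

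DDIT4, on chromosome 10 from 72273924 to 72276036 in GRCh38.p14, was the gene with the highest mean level of the 10 in exposed cells of both lines. Control 293T libraries held 16.8, 16.4 and 15.4 FPKM (replicates 1 to 3), and exposed ones 88.8, 57.3 and 67.6 FPKM. Control A549 libraries held 53.1, 53.6 and 51.3 FPKM, and exposed ones 99.4, 69.2 and 71.3 FPKM. Every exposed library lay above every control of its line, and replicate 1 was the highest exposed library in both lines. The means were 16.2 ± 0.745 and 71.2 ± 16.0 FPKM in 293T and 52.6 ± 1.19 and 80.0 ± 16.9 FPKM in A549 (control and exposed, SD, n = 3 each). The exposed mean was thus 4.40 times the control mean in 293T and 1.52 times in A549, and it exceeded the control mean by 55.0 and by 27.3 FPKM.

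The spread of DDIT4 was wider in exposed than in control libraries of both lines. Set against the control mean of its line, DDIT4 in the exposed replicates 1 to 3 stood at 5.48, 3.54 and 4.18 times in 293T and at 1.89, 1.31 and 1.36 times in A549. The lowest of the 293T values lay above the highest of the A549 values. On the log2 scale the difference, A549 minus 293T, was -1.47, which ranked 4 from the lowest among the 13811 genes, a value of the contrast that chose the gene. DDIT4 ranked 8 from the top by log2 fold change in 293T and 212 in A549. By level it moved from rank 3716 to 778 among the tested genes in 293T and from 1017 to 654 in A549. The exposed groups of the 2 lines overlapped at 57.3 to 88.8 and 69.2 to 99.4 FPKM, whereas the control groups lay well apart. In order of mean level the groups ran from exposed A549 through exposed 293T and control A549 to control 293T, and only the first pair overlapped. In bulk RNA, a change in the number of cells that carry a transcript and a change in its amount per cell cannot be told apart.

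**Figure D2:**
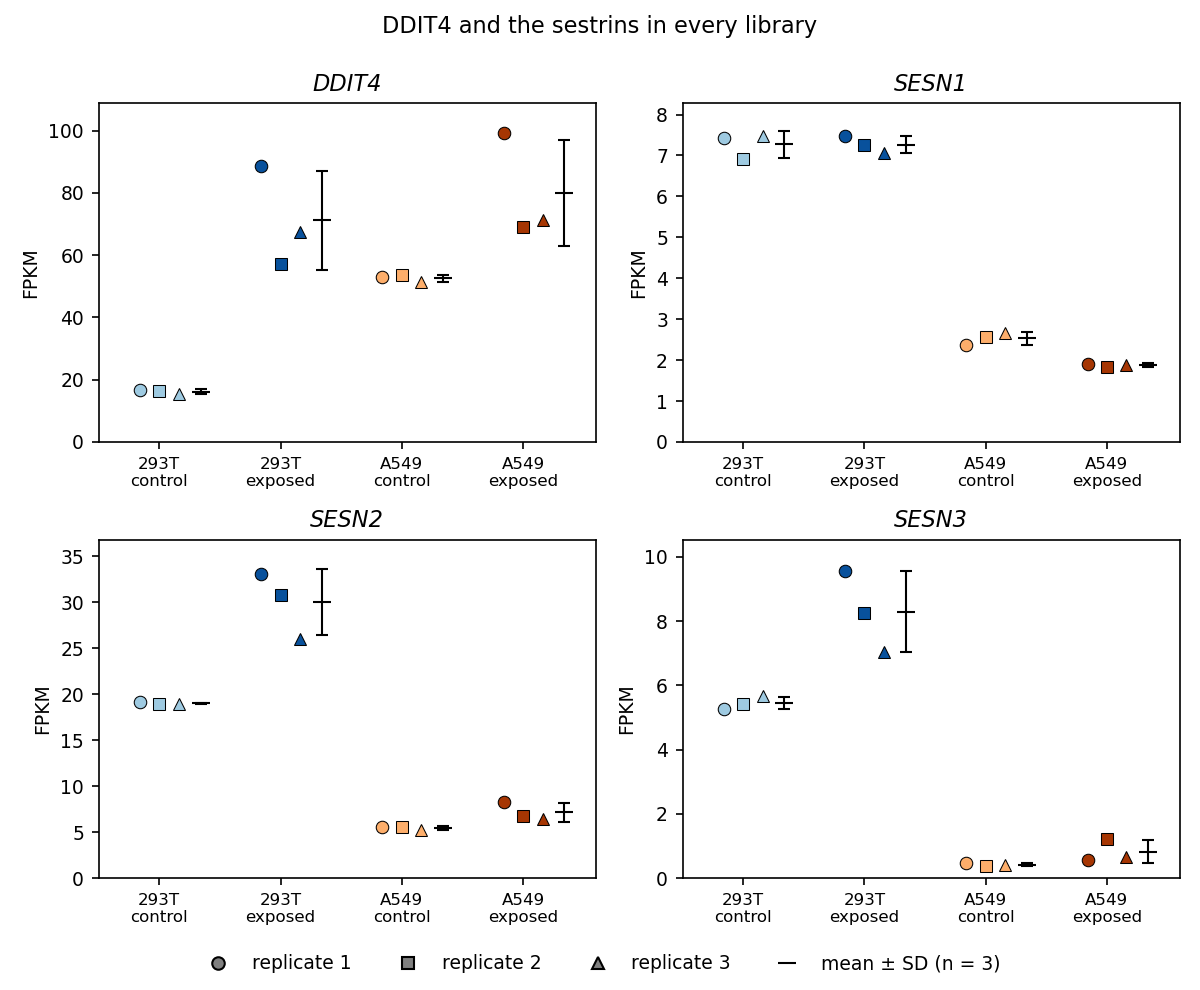
FPKM (y axis) of DDIT4 and the 3 sestrins in each of the 12 libraries by group (x axis), with circles, squares and triangles for replicates 1, 2 and 3 and bars for the mean ± SD (n = 3). DDIT4 lies at 15.4 to 16.8 FPKM in control 293T and at 51.3 FPKM or more in all other libraries, while each sestrin is lower in A549 than in 293T.

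Of the sestrins, SESN2 rose in both lines. SESN2 encodes the leucine-binding sestrin and is known to respond to ATF4 and NRF2. In 293T its level was 19.1, 18.9 and 18.9 FPKM in controls and 33.1, 30.8 and 26.0 FPKM in exposed libraries. In A549 it was 5.59, 5.58 and 5.22 FPKM in controls and 8.32, 6.74 and 6.44 FPKM in exposed libraries. The controls were tightly grouped, no exposed library overlapped them, and exposed replicate 3 was the lowest exposed library of both lines. The mean was 1.58-fold higher in exposed 293T, at 30.0 ± 3.62 against 19.0 ± 0.0849 FPKM (0.63 on the log2 scale, SE 0.09, adjusted p = 2.77e-04). It was 1.31-fold higher in exposed A549 (7.17 ± 1.01 against 5.46 ± 0.211 FPKM, log2 fold change 0.33, SE 0.09, adjusted p = 0.00976). Both calls held in all 24 alternative fits, with adjusted p up to 0.00482 and 0.0402. The rise was 0.30 smaller on the log2 scale in A549 (difference -0.30, interval -0.57 to -0.03, SE 0.12), which did not pass (adjusted p = 0.141). That difference passed when exposed 293T replicate 3 (-0.39, adjusted p = 0.0324) or exposed A549 replicate 1 (-0.40, adjusted p = 0.0382) was left out.

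SESN3, a sestrin induced by FOXO factors, was the sestrin with the largest ratio between the lines. Control 293T held 5.27, 5.43 and 5.66 FPKM and exposed 293T 9.57, 8.26 and 7.04 FPKM. In A549 the values were 0.459, 0.365 and 0.426 FPKM in controls and 0.578, 1.22 and 0.675 FPKM in exposed libraries, from 141 to 461 recovered counts. Exposed libraries lay above controls in both lines, but 1 exposed A549 library, replicate 2, stood well above the other two. The rise in 293T was 1.52-fold (8.29 ± 1.26 against 5.45 ± 0.194 FPKM, log2 fold change 0.52, SE 0.12, adjusted p = 0.00464), a call made in all 24 alternatives. In A549 it was 1.98-fold (0.826 ± 0.348 against 0.416 ± 0.0479 FPKM, log2 fold change 0.35, SE 0.12, adjusted p = 0.0308). The A549 call was lost in 5 of 24 alternatives (adjusted p from 0.00899 to 0.118 over all of them). It was lost without exposed A549 replicate 2 (log2 fold change 0.20, adjusted p = 0.118), without control A549 replicate 2 (0.32, adjusted p = 0.0851) and without control A549 replicate 3 (0.36, adjusted p = 0.0677). The effects in the 2 lines did not differ past the threshold (difference -0.17, interval -0.53 to 0.19, adjusted p = 0.561), and the sign of that difference turned with a pseudocount of 0.1 (0.20) and in limma-voom on recovered counts (0.32).

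SESN1, which encodes another stress-responsive sestrin, followed neither of its paralogs. Its levels in 293T were 7.43, 6.91 and 7.48 FPKM in controls and 7.47, 7.26 and 7.06 FPKM in exposed libraries. In A549 they were 2.36, 2.56 and 2.67 FPKM in controls and 1.91, 1.82 and 1.89 FPKM in exposed libraries. The 293T groups overlapped, and the A549 groups did not. In 293T the log2 fold change was -0.001 (interval -0.10 to 0.10, adjusted p = 0.997), and its sign turned under 7 of 24 alternatives with values between -0.03 and 0.03. In A549 SESN1 fell by 0.30 on the log2 scale (1.35-fold lower, 1.87 ± 0.0487 against 2.53 ± 0.159 FPKM, SE 0.05, adjusted p = 3.80e-04). The effects differed between the lines (difference -0.30, SE 0.07, adjusted p = 0.0133), in all 23 alternatives with adjusted p from 0.00844 to 0.0433.

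The summed FPKM of the 3 sestrins was 31.7 ± 0.417 in control and 45.6 ± 5.06 in exposed 293T, and 8.41 ± 0.0948 and 9.87 ± 0.907 in A549. FPKM is scaled by gene length, so levels can be set side by side. SESN2 was the most abundant sestrin in all 4 groups, at 2.61 ± 0.112 times SESN1 in control 293T and 4.12 ± 0.389 times in exposed 293T. In A549 this ratio was 2.16 ± 0.208 in controls and 3.82 ± 0.486 in exposed libraries. The lines were near each other in this ratio, though their control libraries did not overlap (2.53 to 2.74 in 293T and 1.95 to 2.36 in A549). The exposed libraries lay above the controls of both. DDIT4, by contrast, stood at 0.853 ± 0.0369 times SESN2 in control 293T and at 9.64 ± 0.171 times SESN2 in control A549. In exposed libraries the ratio of DDIT4 to SESN2 was 2.38 ± 0.452 in 293T and 11.1 ± 0.840 in A549.

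**Figure D3:**
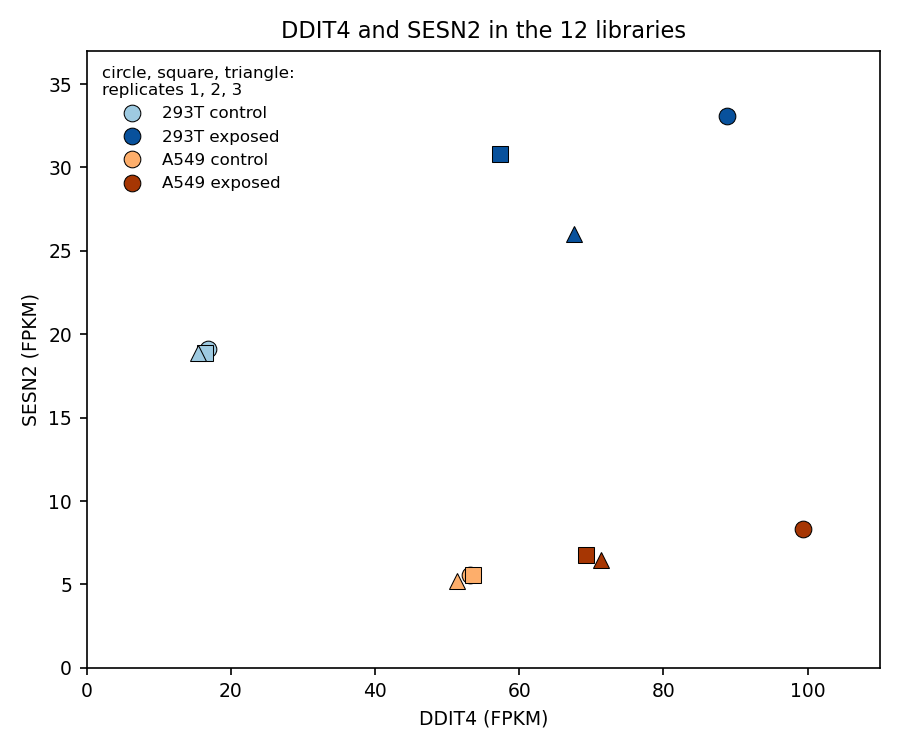
DDIT4 (x axis, FPKM) against SESN2 (y axis, FPKM) in the 12 libraries, coloured by group, with circles, squares and triangles for replicates 1, 2 and 3. The 293T libraries lie at 18.9 FPKM of SESN2 or above and the A549 libraries at 8.32 FPKM or below, and in both lines the exposed libraries lie to the right of and above their controls.

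TSC1 and TSC2 encode hamartin and tuberin, the partners that form the TSC complex, the GTPase-activating complex for RHEB. TSC1 measured 6.82, 6.89 and 6.92 FPKM in control 293T and 8.14, 8.88 and 8.31 FPKM in exposed 293T. In A549 it measured 5.42, 5.76 and 5.76 FPKM in controls and 5.80, 5.72 and 5.81 FPKM in exposed libraries. The exposed 293T libraries stood above their controls, whereas the A549 groups overlapped. In 293T TSC1 rose 1.23-fold (8.44 ± 0.385 against 6.88 ± 0.0550 FPKM, log2 fold change 0.26, SE 0.04, adjusted p = 4.98e-04), in all 24 alternatives. In A549 the log2 fold change was 0.03 (interval -0.06 to 0.12, adjusted p = 0.632). The effect was lower in A549 than in 293T by 0.23 (SE 0.06, adjusted p = 0.0198, 0.0143 to 0.0711 over 23 alternatives). That call was lost with quantile normalization (-0.19, adjusted p = 0.0711), with median centring (-0.20, adjusted p = 0.0538) and without control A549 replicate 3 (-0.22, adjusted p = 0.0511).

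TSC2 fell in both lines. Its libraries read 17.7, 17.9 and 16.8 FPKM in control 293T and 16.1, 15.6 and 15.6 FPKM in exposed 293T. In A549 they read 8.64, 8.98 and 8.75 FPKM in controls and 7.25, 7.47 and 7.35 FPKM after exposure. Exposed and control libraries were apart in both lines. The log2 fold change was -0.14 in 293T (SE 0.03, adjusted p = 0.00769), a call lost with quantile normalization (-0.10, adjusted p = 0.0558), and -0.23 in A549 (SE 0.03, adjusted p = 3.10e-04). These effects did not differ past the threshold (difference -0.09, interval -0.19 to 0.02, adjusted p = 0.277). The ratio of TSC1 to TSC2 was 0.394 ± 0.0148 in control and 0.536 ± 0.0315 in exposed 293T, and 0.642 ± 0.0155 in control and 0.785 ± 0.0171 in exposed A549. In both lines the exposed ratios lay above all control ratios. TSC2 shares 784 bases with PKD1, which averaged 2.98 to 4.22 FPKM per group, and without a stated strand setting for the counting, reads in the shared bases cannot be told apart. The same holds for SESN1 with ARMC2 (at most 0.599 FPKM), SESN3 with LOC100129203 (0.454 FPKM) and MTOR with MTOR-AS1 (0.0735 FPKM).

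RHEB, the GTPase that activates mTORC1 when bound to GTP, had the highest level of the 10 genes in control 293T. Its values were 35.7, 36.9 and 38.1 FPKM in control 293T and 43.1, 39.2 and 38.3 FPKM in exposed 293T. In A549 they were 25.4, 22.8 and 23.5 FPKM in controls and 27.2, 28.4 and 25.0 FPKM in exposed libraries. The gap in 293T was narrow, from 38.1 to 38.3 FPKM, and the A549 groups overlapped. The log2 fold change in 293T was 0.12 (interval -0.004 to 0.24, adjusted p = 0.12), and it passed only without both exposed replicate 3 libraries (0.15, adjusted p = 0.0477). In A549 RHEB rose by 0.16 on the log2 scale (1.13-fold, SE 0.06, adjusted p = 0.0354), a call lost in 7 of 24 alternatives (adjusted p from 0.00888 to 0.137). The libraries without which it was lost were exposed A549 replicate 1 (0.15, adjusted p = 0.0963) and replicate 2 (0.13, adjusted p = 0.137) and control A549 replicate 2 (0.13, adjusted p = 0.124) and replicate 3 (0.15, adjusted p = 0.0963). The difference between the lines was 0.05 (interval -0.13 to 0.22, adjusted p = 0.761).

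MTOR, the kinase itself, was lower in exposed cells. Levels in 293T were 19.3, 19.0 and 18.2 FPKM in controls and 16.0, 16.7 and 17.2 FPKM in exposed libraries. In A549 they were 11.2, 11.6 and 11.7 FPKM in controls and 10.8, 10.3 and 10.6 FPKM in exposed libraries. The groups were apart in both lines, with 18.2 and 17.2 FPKM in the nearest libraries of 293T and 11.2 and 10.8 FPKM in those of A549. In 293T the log2 fold change was -0.17 (1.13-fold lower, SE 0.04, adjusted p = 0.00472), in all 24 alternatives. In A549 it was -0.11 (1.09-fold lower, SE 0.04, adjusted p = 0.0396), and this call was lost in 11 of 24 alternatives with adjusted p up to 0.339. The value was -0.05 with median centring and -0.07 with quantile normalization. Leaving out single libraries ended it for exposed 293T replicate 2 (adjusted p = 0.0519), control 293T replicate 2 (0.0551), exposed A549 replicates 2 (0.13) and 3 (0.07) and control A549 replicates 2 (0.102) and 3 (0.116), with values from -0.11 to -0.09. The effects did not differ past the threshold between the lines (difference 0.06, interval -0.06 to 0.18, adjusted p = 0.515).

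DEPTOR and AKT1S1 (PRAS40) encode inhibitors that bind mTORC1, and neither passed the test in either line. DEPTOR was the least expressed of the 10 genes in 293T, at 1.15, 0.997 and 1.04 FPKM in controls and 1.56, 1.12 and 1.23 FPKM in exposed libraries. In A549 it was at 0.641, 0.954 and 0.832 FPKM in controls and at 0.374, 0.907 and 0.736 FPKM in exposed libraries. These values rest on 37 to 149 recovered counts, and the groups overlapped in both lines. The log2 fold changes were 0.16 in 293T (interval -0.08 to 0.40, adjusted p = 0.288) and -0.12 in A549 (interval -0.36 to 0.12, adjusted p = 0.417), and without exposed A549 replicate 1 the A549 value was 0.01. AKT1S1 was at nearly one level throughout, 31.0 to 34.3 FPKM in control 293T, 31.6 to 33.8 FPKM in exposed 293T, 31.7 to 34.0 FPKM in control A549 and 32.8 to 35.6 FPKM in exposed A549. All 4 groups of AKT1S1 overlapped with their neighbours in level. Its log2 fold changes were 0.01 in 293T (interval -0.09 to 0.12, adjusted p = 0.858) and 0.09 in A549 (interval -0.02 to 0.19, adjusted p = 0.177). Median centring brought the A549 value past the threshold (0.14, adjusted p = 0.0467). AKT1S1 shares 655 bases with TBC1D17, which averaged 3.82 to 8.98 FPKM per group.

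**Figure D4:**
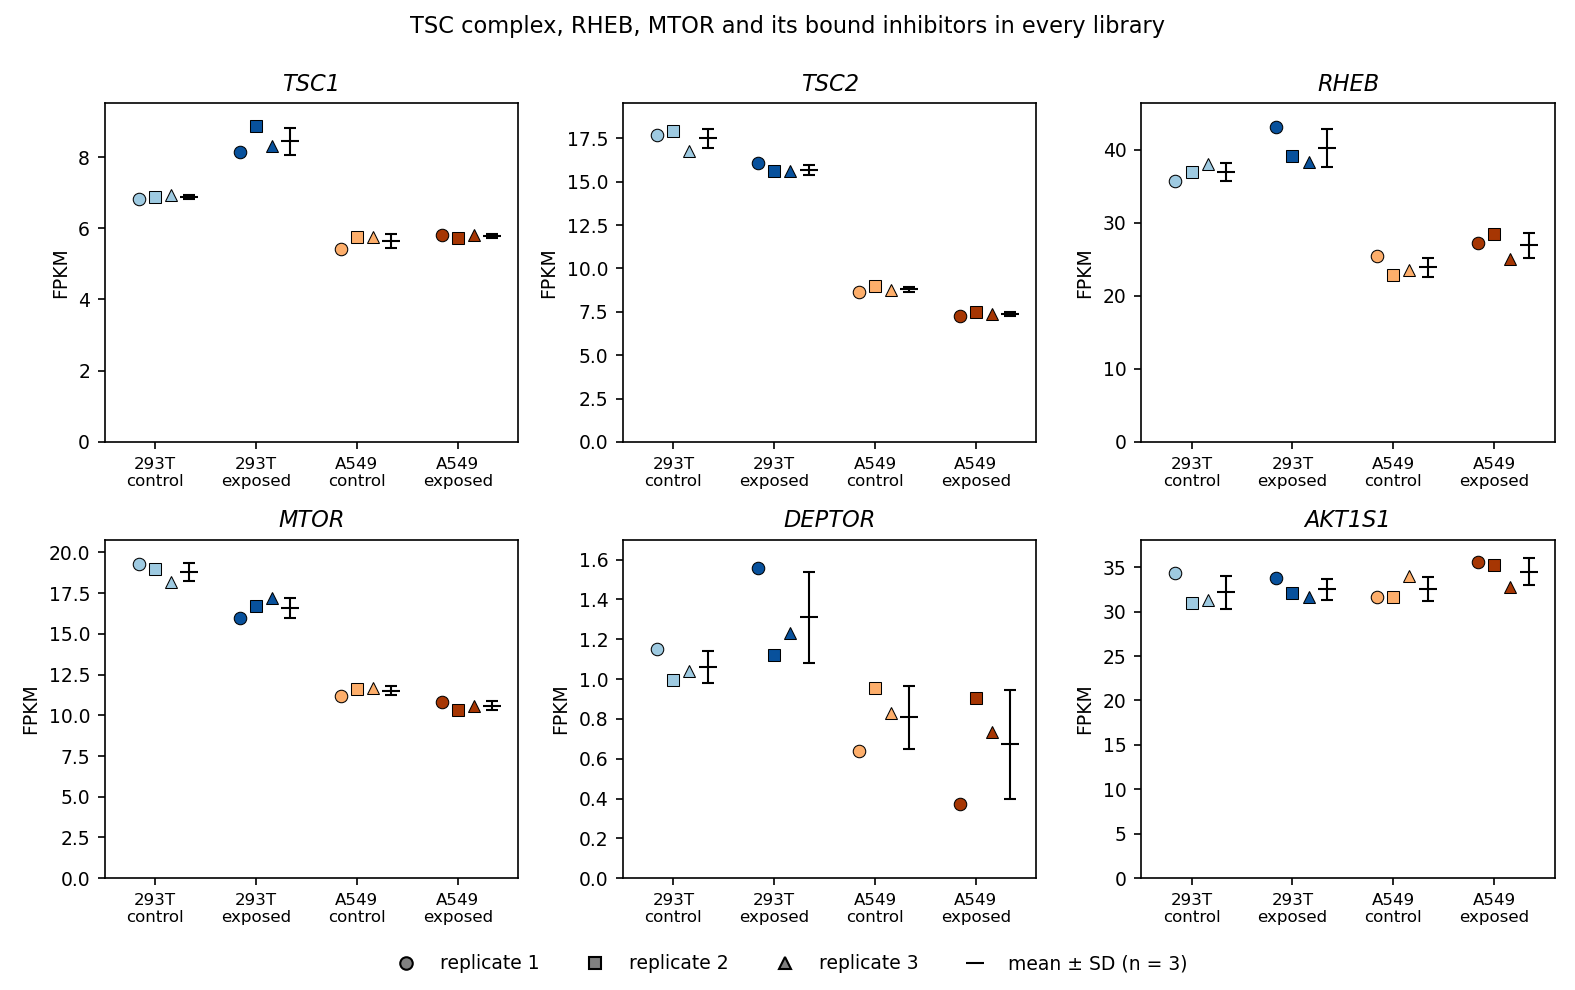
FPKM (y axis) of TSC1, TSC2, RHEB, MTOR, DEPTOR and AKT1S1 in each of the 12 libraries by group (x axis), with circles, squares and triangles for replicates 1, 2 and 3 and bars for the mean ± SD (n = 3). TSC2 and MTOR are lower in the exposed libraries of both lines, and AKT1S1 lies between 31.0 and 35.6 FPKM in all libraries.

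A second comparison asked whether the field effects differed between the lines, as A549 minus 293T. Of the 9 genes tested, SESN1 and TSC1 had a lower effect in A549 and none had a higher one, with 12.5% of all genes differing (5.51% higher and 7.03% lower in A549). The median difference of the 9 was -0.17, against -0.01 over all genes. The same 2 against none stood without both exposed replicate 3 libraries. The other 7 did not pass, with -0.30 for SESN2, -0.28 for DEPTOR, -0.17 for SESN3 (0.20 and 0.32 in the alternatives named above), -0.09 for TSC2, 0.05 for RHEB, 0.06 for MTOR and 0.07 for AKT1S1. Both field comparisons share the fit and its spread but no library.

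The third comparison set the control libraries of the lines against each other. The choice of DDIT4 rests on the same control libraries, so its value here is a description with no test. Of the other 9 genes, 7 were lower in A549 and 0 were higher, the former being SESN1, SESN2, SESN3, TSC1, TSC2, RHEB and MTOR. Of all genes tested, 88.3% were called (32.4% higher and 55.9% lower in A549), and groups did not overlap for 8 of the 9 and for 89.6% of all genes. The median of the 9 was -0.67, against -0.25 over all genes, and the latter moved to -0.410 on rescaling to TPM and to -0.15 with quantile normalization. DDIT4 stood at 3.25 times its control 293T mean in control A549, with no overlap (log2 fold change 1.64). SESN3 was 13.1-fold lower in control A549 (log2 fold change -2.19, SE 0.12, adjusted p = 8.70e-10), SESN2 3.47-fold lower (-1.63, SE 0.09, adjusted p = 9.24e-10) and SESN1 2.87-fold lower (-1.23, SE 0.05, adjusted p = 2.61e-11). In A549 DDIT4 was the most abundant of the 10 transcripts without a field, and in 293T it ranked 6 of 10.

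The genes of the complex and its GTPase were also lower in control A549, by less. TSC2 was 1.99-fold lower (log2 fold change -0.92, SE 0.03), MTOR 1.64-fold (-0.67, SE 0.04), RHEB 1.55-fold (-0.61, SE 0.06) and TSC1 1.22-fold (-0.25, SE 0.04), with adjusted p of 7.09e-05 or less. Each of these held its direction and its call in 23 alternatives. The TSC1 value equalled the median of all genes. DEPTOR had a log2 fold change of -0.19 (interval -0.43 to 0.05, adjusted p = 0.116), and it passed on rescaling to TPM (-0.37, adjusted p = 0.0499) and without exposed A549 replicate 1 (-0.19, adjusted p = 0.0427). The value of AKT1S1, 0.01 (interval -0.09 to 0.12, adjusted p = 0.828), passed as higher in A549 with quantile normalization (0.13, adjusted p = 0.0318) and as lower on rescaling to TPM (-0.12, adjusted p = 0.036), so it has no direction apart from the scaling.

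Across the 12 libraries, the genes whose log2(FPKM + 1) values followed those of DDIT4 most closely were KLF6 (Pearson r = 0.969), SH3YL1 (0.963), ERP29 (0.954), TIGAR (0.947) and TRIM4 (0.936). Of the 13810 other genes, 26 had an r of at least 0.9. The libraries fall into 4 groups, so such an r describes the pattern of group means. KLF6, a zinc-finger transcription factor, averaged 7.75 ± 0.0407 FPKM in control 293T, 19.3 ± 2.82 in exposed 293T, 17.6 ± 0.583 in control A549 and 23.3 ± 0.633 in exposed A549 (SD, n = 3 each). Like DDIT4, all 5 genes had their lowest mean in control 293T and their highest in exposed A549, an order to be looked for in genes picked by this r. Ranked by Spearman's rho, the 5 closest genes shared 0 with these 5. None of the other 9 genes was close to DDIT4 by this measure, and their r ran from -0.666 (MTOR) to 0.426 (AKT1S1), with SESN2 at -0.247. Such an r takes in the levels of the lines as well as the field. In control A549, DDIT4 was 3.25 times as high as in control 293T and SESN2 3.47-fold lower. Within each line, the exposed libraries of both genes lay above the controls.

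The rest of the pathway was read from 9 lists holding 99 genes outside the 10, of which 96 were tested. In 293T 17 of the 96 rose and 26 fell (median log2 fold change -0.01, all genes -0.03), and in A549 9 rose and 37 fell (median -0.08, all genes -0.04). The difference between the lines was called for 15 of the 96, each time lower in A549. Over all genes tested, 38.0% changed in 293T (13.7% rose and 24.2% fell) and 40.2% in A549 (13.3% rose and 26.9% fell). Between the lines 12.5% of all genes differed, 5.51% with a higher and 7.03% with a lower effect in A549. These shares and the medians over all genes are the background for each list below. The lists were chosen with earlier results of these data known, so their counts, and the shared direction of the 15, are descriptions.

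Of the 8 subunits and assembly factors of the mTOR complexes tested, 1 rose and 4 fell in 293T (median -0.15), and 0 rose and 4 fell in A549 (median -0.17). RPTOR encodes raptor, the subunit that defines mTORC1. It read 12.2, 11.6 and 11.4 FPKM in control and 9.47, 9.30 and 9.66 FPKM in exposed 293T, and 13.8, 13.8 and 13.4 against 9.11, 9.57 and 9.92 FPKM in A549. No exposed library reached a control, and the log2 fold changes of RPTOR were -0.28 (SE 0.04, adjusted p = 2.93e-04) and -0.48 (SE 0.04, adjusted p = 4.91e-06). TELO2, which helps to assemble the kinase, fell by 0.38 in 293T and by 0.42 in A549. MLST8, the subunit common to both mTOR complexes, fell by 0.21 in 293T and by 0.22 in A549, and PRR5, a subunit of mTORC2, fell by 0.30 and 0.21. The MLST8 call in 293T was lost in 2 of 24 alternatives and the PRR5 call in A549 in 4.

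DDIT4L, the paralog of DDIT4, did not follow it. It had 1.08 ± 0.0708 FPKM in control and 1.04 ± 0.178 FPKM in exposed 293T (log2 fold change -0.04, adjusted p = 0.754), and in A549 it fell by 0.51 on the log2 scale (1.65 ± 0.129 FPKM in controls, 0.858 ± 0.171 FPKM after exposure, adjusted p = 2.51e-04). RHEBL1, the paralog of RHEB, did not pass in A549 (0.25, adjusted p = 0.172), and TBC1D7, the further partner of the TSC complex, stayed below the filter at 0.251 FPKM or less.

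Among the amino acid branch, on which the sestrins act, 5 of 12 GATOR and KICSTOR genes fell and 0 rose in 293T, and 5 fell and 1 rose in A549 (medians -0.10 and -0.07). WDR24, a subunit of the sestrin-binding GATOR2 complex, fell by 0.39 in 293T and by 0.31 in A549, and DEPDC5, a subunit of the inhibitory GATOR1 complex, fell by 0.34 and 0.28. KICS2 of the KICSTOR complex rose by 0.31 in A549 (adjusted p = 0.00212). Of 13 Rag, Ragulator and folliculin genes, 2 rose and 2 fell in 293T and 1 rose and 2 fell in A549 (medians 0.05 and -0.02). RRAGA, a Rag GTPase, fell by 0.24 in 293T and had -0.15 in A549 (adjusted p = 0.0526), and the Ragulator scaffold LAMTOR1 fell by 0.19 in 293T and by 0.14 in A549. The lysosomal arginine sensor SLC38A9 rose by 0.20 in 293T. In A549 RRAGD fell by 0.17 and LAMTOR2 rose by 0.11, and the A549 calls of LAMTOR1, LAMTOR2 and RRAGD were each lost in some alternatives. Of the 3 cytosolic arginine and methionine sensors, CASTOR2 rose in 293T (0.26, adjusted p = 0.00472) and none passed in A549, where CASTOR1 stood at -0.17 (adjusted p = 0.172) and BMT2, the gene of SAMTOR, at 0.33 (adjusted p = 0.112).

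Of 9 AMPK and LKB1 genes, which carry the energy signal to the TSC complex, 1 rose and 4 fell in 293T and 0 rose and 4 fell in A549 (medians -0.21 and -0.08). STK11, the gene of LKB1, fell by 0.32 in 293T and by 0.26 in A549. A549 cells are known to lack functional LKB1 protein, which an mRNA level does not show. Its partner STRADA fell by 0.29 in 293T and by 0.14 in A549 (a call lost in 2 alternatives), the AMPK subunit gene PRKAB1 by 0.24 in 293T and 0.15 in A549 (a call lost in 1 alternative), and the catalytic PRKAA1 by 0.41 in A549, with -0.21 in 293T (adjusted p = 0.101). On the insulin receptor, PI3K and AKT list, 3 of 17 rose and 4 fell in 293T and 0 rose and 9 fell in A549 (medians 0.08 and -0.11). PIK3R2, a regulatory subunit of PI3K, fell by 0.37 and 0.28, and its relative PIK3R1 had 0.13 in 293T (adjusted p = 0.0715) and fell by 0.49 in A549. The catalytic PIK3CD fell by 0.20 in 293T and by 0.34 in A549. The kinase AKT1 fell by 0.20 in 293T and by 0.09 in A549, the latter call lost in 10 of 24 alternatives, and AKT2 fell by 0.14 and 0.16.

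Of the 19 substrates and effectors of mTORC1 tested, 2 were higher and 5 lower in each line, with medians of -0.04 in 293T and -0.02 in A549. This was near all genes tested, of which 38.0% and 40.2% changed, with medians of -0.03 and -0.04. The translation factor EIF4G1 fell from 221 ± 3.53 to 186 ± 5.82 FPKM in 293T and from 103 ± 2.09 to 91.0 ± 3.15 FPKM in A549. The autophagy genes ULK1 and ATG13 fell by 0.30 and 0.24 in 293T and by 0.20 and 0.13 in A549. TFEB, the transcription factor of lysosomal genes, fell by 0.20 in 293T and by 0.48 in A549, and EEF2K, the kinase of elongation factor 2, by 0.26 and 0.42. Of these, the TFEB and EEF2K calls in 293T were lost in 14 and 4 of 24 alternatives, and the ULK1 and ATG13 calls in A549 in 6 and 3.

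The list of regulators known to act on DDIT4 or the sestrins held DDIT3 and XBP1, the genes with the largest log2 rises among the 96 in both lines. In 293T 7 of 13 of this list rose and 2 fell (median 0.18), and in A549 5 rose and 7 fell (median -0.15). Of all genes tested, 13.7% rose and 24.2% fell in 293T (median -0.03), and 13.3% rose and 26.9% fell in A549 (median -0.04). DDIT3 (CHOP) read 6.04, 7.09 and 7.99 FPKM in control and 19.4, 16.6 and 16.3 FPKM in exposed 293T, and 19.2, 22.7 and 21.6 against 49.5, 43.0 and 37.3 FPKM in A549. It rose 2.48-fold in 293T (log2 fold change 1.20, SE 0.11, adjusted p = 2.99e-05) and 2.04-fold in A549 (0.99, SE 0.11, adjusted p = 3.74e-05). XBP1 rose by 1.03 and 1.01 on the log2 scale, and ATF4 by 0.22 and 0.40. NFE2L2 (NRF2) rose from 18.8 ± 0.642 to 31.7 ± 3.36 FPKM in 293T (0.72, adjusted p = 1.94e-05) and by 0.41 in A549. HIF1A, which is not among the genes picked by the naming rule and was chosen after its value was seen, fell by 0.14 in 293T and by 0.25 in A549. Values per gene show neither the spliced form of XBP1 nor protein levels of ATF4. DDIT3 overlaps MARS1, and among the other list genes TELO2, MLST8, PRR5, CASTOR2, LAMTOR1, STK11, PIK3CD and ATG13 each overlap another protein-coding gene, so their reads in shared bases cannot be told apart.

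**Figure D5:**
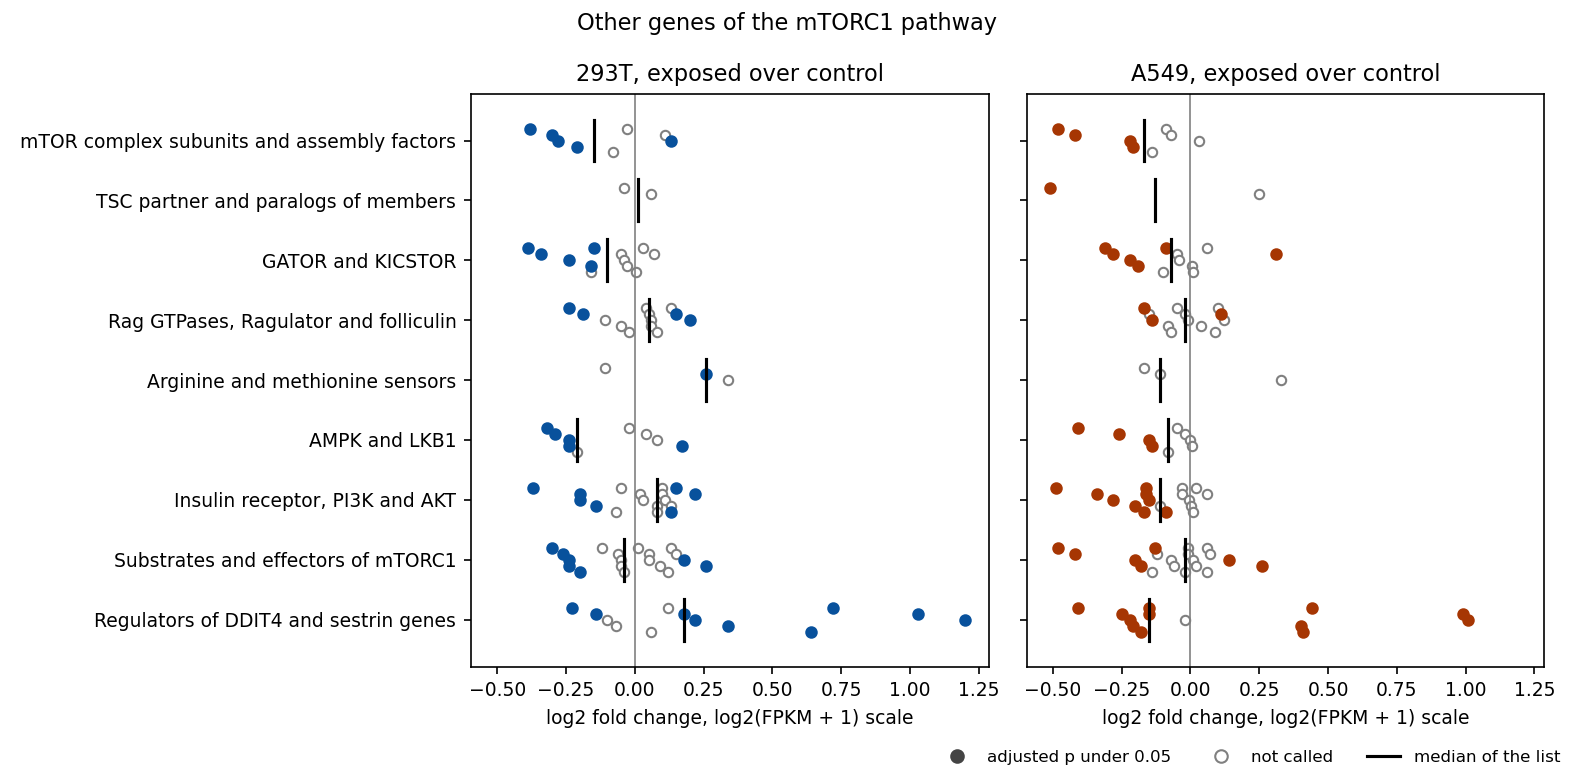
Log2 fold change of exposed over control on the log2(FPKM + 1) scale (x axis) for the 96 tested genes of the 9 lists (y axis), in 293T on the left and A549 on the right. Filled points have an adjusted p under 0.05, black bars are list medians, and the points farthest to the right are DDIT3 and XBP1, at 1.20 and 1.03 in 293T and at 0.99 and 1.01 in A549.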

How the data were processed

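Poly(A)-selected RNA of 12 libraries was sequenced. The tools named in the submitters' processing notes are fastp, HISAT2 and HTSeq, on GRCh38, and their versions, parameters and strand use are not given in the sources used here. FPKM values were deposited by the authors, scaled to gene length and library total. Their steps were whole multiples for 100% of the 26348 genes within 0.01 counts, and the counts recovered from the deposited values gave the depth and 1 alternative.

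Genes with at least 0.5 FPKM in at least 3 libraries were kept (13811, with 12537 removed). The log2(FPKM + 1) values entered a model in limma 3.58.1 (R 4.3.3) that held a mean for every group, an intensity trend and 8 residual degrees of freedom. The fit was checked on simulated data. Tests were two-sided with Benjamini-Hochberg adjustment over all genes tested. Fold values are ratios of mean FPKM. No columns held identical values.

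Alternatives were no filter, a filter at a mean FPKM of 1, a pseudocount of 0.1, quantile normalization, TPM, median centring, the sum without the 13 mitochondrially encoded genes, no trend, limma-voom on recovered counts, a replicate block, each line alone and leaving out each library. Leaving out both exposed replicate 3 libraries was added after seeing the data.

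The 10 genes, the 9 lists and the marker lists were chosen with earlier results of these data known. Named besides the 10 were, per list and line, the 3 genes with the smallest adjusted p among those whose higher group averaged 1 FPKM or more, and the 5 genes with the highest r to DDIT4. Some list genes are not reported here by name, PRKAG3 was not analysed here, and TBC1D7 and EIF4EBP3 were below the filter. Coordinates and promoters are from RefSeq (GRCh38.p14), and 25419 gene identifiers matched. Tables were made with pandas 2.3.3 and numpy 2.4.6 (Python 3.11.15).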

Additional observations from a re-analysis of the deposited data

Results flagged for a closer look

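For 8 of the genes named, the test of the difference itself found different field effects in the 2 lines, given here as A549 minus 293T on the log2 scale (limma, Benjamini-Hochberg over all genes). Of all genes tested, 12.5% differed. The list genes among the 8 had been named for a small adjusted p within either line, so their number cannot be set against that share. For SESN1 the difference was -0.30 (adjusted p = 0.0133) and for TSC1 -0.23 (adjusted p = 0.0198). PIK3R1 had the largest of the 8, -0.62 (SE 0.08, adjusted p = 6.09e-04), from 0.13 in 293T and -0.49 in A549. DDIT4L differed by -0.48 (adjusted p = 0.0139) and CASTOR2 by -0.37 (adjusted p = 0.014), from 0.26 in 293T and -0.11 in A549. SESN1, PIK3R1, DDIT4L and CASTOR2 passed in all 23 alternatives.

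The other differences were less stable. NFE2L2 differed by -0.31 (adjusted p = 0.0335), and 12 of 23 alternatives lost the call (adjusted p up to 0.0785). RPTOR differed by -0.20 (adjusted p = 0.0347), lost in 13 of 23 (up to 0.0830). SLC38A9 differed by -0.23 (adjusted p = 0.0327), lost in 15 of 23 (up to 0.0880), and TSC1 lost it in 3 of 23. All 8 differences are negative, while over all genes tested 5.51% had a higher and 7.03% a lower effect in A549.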

How the results depend on the processing

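Of 24 results that answer a comparison (counts of calls, DDIT4 values and the likeness to DDIT4), 16 were marked as moved by no alternative. That mark allowed wide shifts in counts over all genes. None was marked as reversed, but a count has no direction to turn, and the other results are values of DDIT4, the gene picked for its response. Signs of other genes did turn and are given below. In 293T, 2500 to 3518 of all genes were lower in fits without 1 library, against 3346 as reported. Among the 9 genes tested apart from DDIT4, 1 was lower in 293T with quantile normalization. In A549, 1 was higher without the filter or with each line alone, and 1 to 3 were when single libraries were left out. For the difference between the lines, 1 was lower with quantile normalization or median centring, and 1 to 3 when single libraries were left out, with 637 to 1030 of all genes lower (637 without control 293T replicate 2). Between the controls, 1 was higher with quantile normalization, and the DDIT4 ratio was 2.97 on rescaling to TPM (3.25 in FPKM). Its log2 value there was 1.70 with a pseudocount of 0.1 and in limma-voom, 1.79 with quantile normalization, 1.55 on rescaling to TPM and 1.74 with median centring (1.64 as reported). By Spearman's rho, 0 of the 5 genes closest to DDIT4 were shared. The causes were not tested.

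Signs turned for these values. In 293T, SESN1 was 0.03 with quantile normalization and with median centring, 0.003 on rescaling to TPM, -0.03 to 0.02 in fits without 1 library and 0.02 without both exposed replicate 3 libraries. There AKT1S1 was -0.01 with the sum without mitochondrially encoded genes and -0.01 to 0.06 in fits without 1 library. DDIT4L was 0.03 with quantile normalization, -0.11 to 0.01 in fits without 1 library and 0.01 without both exposed replicate 3 libraries. In A549, TSC1 was -0.01 with the sum without mitochondrially encoded genes, and DEPTOR was -0.22 to 0.01 in fits without 1 library, with 0.01 without exposed A549 replicate 1. The SESN3 difference was 0.20 with a pseudocount of 0.1 and 0.32 in limma-voom. Between the controls, AKT1S1 was -0.12 on rescaling to TPM and -0.02 to 0.06 in fits without 1 library.

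Within each line, replicate numbers did not pair exposed with control libraries (correlation of same-numbered deviations -0.141 to 0, none highest with its own number). Same-numbered libraries of the 2 lines were not set against each other in this check. In both lines exposed replicate 3 lay nearest to the controls, and a link between the lines by replicate number was not tested. With the replicate number as a block, 3 genes rose and 2 fell in 293T, and 3 rose and 2 fell in A549, where MTOR (-0.11) had an adjusted p of 0.0611. The block gave 1814 higher and 3301 lower among all genes in 293T. DEPTOR rests on 37 to 149 counts per library and SESN3 in A549 on 141 to 461.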
